A study of Mus musculus with 8 samples.

Results

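The transcripts of 45 genes of the lysosome were followed in brown adipose tissue (BAT), the thermogenic fat depot, by bulk RNA-seq of 4 WT and 4 Cd36KO libraries. The 45 genes were taken by symbol from a table of 31053 genes and comprise cathepsins, other lysosomal hydrolases and their activators, lysosomal membrane proteins, subunits of the proton pump and the TFEB family of transcription factors. The rule lists them by name and sets no condition on a measured value. Of the 45, 44 had at least 1 count in some library, 41 received an adjusted p-value from DESeq2, and 1, Atp6v0c, was at 0 counts in all 8 libraries.

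All mice were labelled C57BL6/J and 8 weeks old. The labels give the genotype only as WT or Cd36KO, whereas the study's methods describe CD36 flox/flox mice crossed with Csf1r Cre, a driver active in macrophages and other myeloid cells, and state a later age at sacrifice for that line. The study's text also names a germline knockout. It states that the BAT transcriptome was profiled in the line lacking CD36 in macrophages. The labels do not name the line, and they name the cell type as Stromal Vascular Fraction although the brown adipocyte gene Ucp1 had 4235 to 12310 normalized counts in every library. No number stands in the name of 1 Cd36KO count column, here the unnumbered Cd36KO library. A legend in the study, in contrast, gives the labelled age for the line lacking CD36 in macrophages and counts each group in mice, as many as there are libraries. The labels tie no library to an animal, and the design text speaks of biological replicates, so p-values are read as measuring the spread between these libraries.

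Total counts ranged from 2679785 to 4097953 per library. The labels give no sex, the methods state male mice, and every library held 772 to 1588 counts of Xist with 0 counts of the Y-linked Uty, Kdm5d and Eif2s3y and 0 to 3 of Ddx3y. Cd36 itself, the targeted gene, had 2796, 2958, 3505 and 2412 normalized counts (counts divided by the library's size factor) in WT and 1926, 2109, 2384 and 1930 in Cd36KO. All Cd36KO values lay below all WT values, with a log2 fold change of -0.48 ± 0.16 (SE, n = 4 per group; DESeq2 adjusted p = 0.0602; exact two-sided permutation p = 0.0286, the smallest that 70 arrangements allow). The adjusted p was 0.191 with edgeR and 0.214 with limma, and over all alternatives it ran from 0.00656 (without WT replicate 4) to 0.29 (without WT replicate 3), under 0.05 only in the former and with TMM scaling factors (0.0494).

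Lysosomes are acidic organelles in which hydrolases break down proteins, glycans, lipids and nucleic acids delivered by endocytosis, phagocytosis and autophagy. Cathepsins are their main proteases, the vacuolar proton pump keeps their lumen acidic, and membrane proteins such as LAMP1 line the inner face of their membrane. TFEB, TFE3 and MITF enter the nucleus when lysosomal capacity or nutrients fall short, and bind an E-box in the promoters of many lysosomal genes, known as the CLEAR element. Macrophages are rich in lysosomes, and lipid-associated macrophages (LAMs), the cells the study follows, carry lysosomal and lipid-handling transcripts. CD36 is a scavenger receptor for lipids and vesicles, whose cargo is delivered to lysosomes after uptake. The comparison asked here was whether lysosomal transcripts of the whole tissue differed between the genotypes.

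The promoters are given first. The rule lists the genes by name and not by promoter sequence, but the CLEAR element is known from lysosomal genes. A higher share of it among them is therefore not an independent result. RefSeq promoter windows on GRCm38.p6, from 250 bases before to 50 after the annotated start, matched 40 of the 45 genes, and Asah1, Atp6v1b2, Atp6v1h, Ctsb and Ctsh had no entry. The 8-letter element TCACGTGA, which reads the same on both strands, was present in 6 of the 40, or 15.0%, against 1.12% of 27025 genes with a window. Its 6-letter core CACGTG, which every TCACGTGA contains, was present in 13 of the 40, or 32.5%, against 8.09%. The same element extended by G at its 5′ end and C at its 3′ end, 10 letters in all, occurred in Cln3 alone, against 0.37% of all genes. To show the element, 5 promoters are printed 5′ to 3′ on the gene's strand. Each CACGTG core is in capitals, with its flanking T and A where it forms TCACGTGA, and other E-box forms are not marked. Ctsd, the most abundant cathepsin, has 1 copy of TCACGTGA and a second core, and Cln3 has the 10-letter form. Mcoln1 is the lysosomal calcium channel, and the 4 cores of Lamp1 lie close together. Lipa, the gene with the clearest separation of groups, has no core in this window.
Ctsd, chr7:142387778-142388077, minus strand: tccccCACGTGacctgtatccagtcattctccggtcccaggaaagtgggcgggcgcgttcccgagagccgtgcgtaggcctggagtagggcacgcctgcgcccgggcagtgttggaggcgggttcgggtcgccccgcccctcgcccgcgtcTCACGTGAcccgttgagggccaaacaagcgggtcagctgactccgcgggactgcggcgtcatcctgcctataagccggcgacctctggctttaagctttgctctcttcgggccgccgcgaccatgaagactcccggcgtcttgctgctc
Cln3, chr7:126583187-126583486, minus strand: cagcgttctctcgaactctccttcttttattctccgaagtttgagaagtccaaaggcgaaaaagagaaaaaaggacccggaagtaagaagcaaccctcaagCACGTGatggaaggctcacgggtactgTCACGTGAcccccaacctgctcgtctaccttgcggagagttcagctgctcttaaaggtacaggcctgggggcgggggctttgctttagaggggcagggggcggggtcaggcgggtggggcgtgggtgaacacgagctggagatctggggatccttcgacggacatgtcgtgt
Mcoln1, chr8:3500269-3500568, plus strand: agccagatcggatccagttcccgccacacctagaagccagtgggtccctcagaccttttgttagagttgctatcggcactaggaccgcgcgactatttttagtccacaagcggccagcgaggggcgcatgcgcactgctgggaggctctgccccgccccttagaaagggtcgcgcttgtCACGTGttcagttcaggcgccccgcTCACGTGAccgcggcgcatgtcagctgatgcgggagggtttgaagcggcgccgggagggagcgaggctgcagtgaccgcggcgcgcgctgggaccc
Lamp1, chr8:13158911-13159210, plus strand: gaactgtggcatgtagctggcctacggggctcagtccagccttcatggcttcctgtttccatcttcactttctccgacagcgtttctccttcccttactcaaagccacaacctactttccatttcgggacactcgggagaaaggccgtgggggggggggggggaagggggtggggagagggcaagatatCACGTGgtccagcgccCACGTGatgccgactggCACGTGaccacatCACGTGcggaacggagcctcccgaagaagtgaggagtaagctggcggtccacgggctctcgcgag
Lipa, chr19:34527425-34527724, minus strand: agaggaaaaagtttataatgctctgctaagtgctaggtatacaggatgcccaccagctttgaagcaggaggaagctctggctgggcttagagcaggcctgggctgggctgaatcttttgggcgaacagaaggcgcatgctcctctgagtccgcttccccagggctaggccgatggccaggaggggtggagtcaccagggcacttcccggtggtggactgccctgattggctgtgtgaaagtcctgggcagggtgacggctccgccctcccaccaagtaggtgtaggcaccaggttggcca

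**Figure D1:**
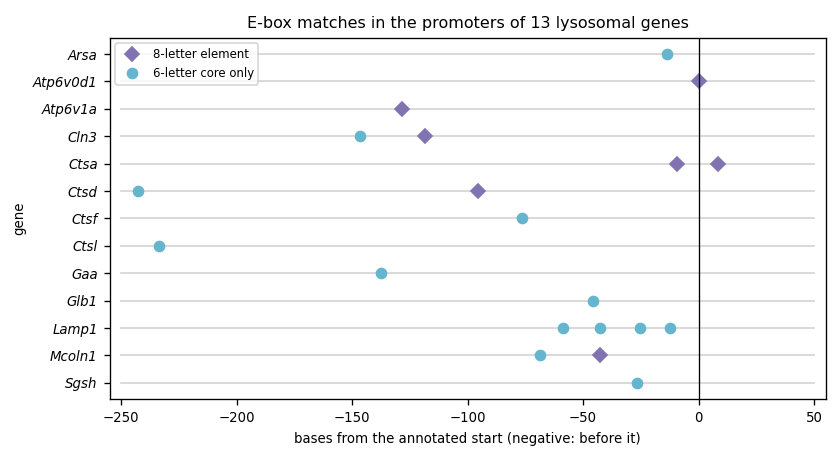
Matches of the CACGTG core in the RefSeq promoter windows of the 13 lysosomal genes that hold at least 1, by distance in bases from the annotated start. Diamonds mark the 8-letter element, found in 6 genes, and circles a 6-letter core without it; Lamp1 carries 4 cores and no 8-letter element.

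The genes with the 8-letter element were Atp6v0d1, Atp6v1a, Cln3, Ctsa, Ctsd and Mcoln1. Their log2 fold changes in Cd36KO against WT ran from -0.15 (Ctsa) to 0.25 (Cln3) with a median of 0.11, and the median over the 30 tested genes that had a window without the element was 0.02. For the 13 genes with a core the median was 0.22 and the range -0.40 (Ctsl) to 0.63 (Glb1), against -0.02 over 23 genes without one. These medians moved with WT 1 and the unnumbered Cd36KO library: without both, a check added after the values were seen, they were 0.03 against -0.09 for the core and -0.08 against 0.02 for the 8-letter element. In WT 1 the median ratio to the mean of the other WT libraries was 0.774 over the genes with a core and 0.916 over those without. For the 8-letter element this ratio showed no such gap, at 0.817 with it and 0.8 without. These are descriptions of sequence windows beside fold changes, and no test was made of them.

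Together the 45 genes held 0.477% to 0.564% of all counts in WT and 0.483% to 0.554% in Cd36KO libraries, so their summed share overlapped between the genotypes (exact two-sided permutation p = 0.771, n = 4 per group). Per kilobase of merged exon and averaged over the 8 libraries, Cst3 (a secreted inhibitor of cysteine cathepsins) had the highest level at 1337 normalized counts, followed by Ctsd at 1305, Lamp1 at 690, Grn at 327, Psap at 318, Ctsz at 283 and Cd63 at 258. The levels per kilobase of Cst3 and Ctsd overlapped widely, at 569 to 1848 and 641 to 1719 over the 8 libraries, whereas the 505 to 977 of Lamp1 touched the 146 to 539 of Grn only at the ends. At the lower end stood Ctsk at 3.69, Galc at 2.69, Arsb at 2.11, Ctso at 1.96 and Manba at 0.869. If the digital mRNA-seq reads came mainly from one end of the transcript, division by length would misplace long and short genes, and the sources used here do not say.

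No lysosomal gene passed an adjusted p of 0.05 in Cd36KO against WT. DESeq2 called 0 of the 41 tested, against 2.95% of 9619 genes tested in the whole table (1.42% higher and 1.53% lower). At an unadjusted p under 0.05 it returned 3 of 41, Lipa higher and Tpp1 and Cd63 lower, against 15.6% of all tested genes (7.69% higher and 7.88% lower). The quasi-likelihood test of edgeR called 0 of 42, against 0.143% of 9793 genes, and gave 3 at an unadjusted p under 0.05 (Ctsl, Lipa and Tpp1, against 16.1%). With limma on the authors' log2 values the count was 0 of 42, against 0% of 9793, with 2 at an unadjusted p under 0.05 (Lipa and Tpp1, against 15.7%). The 4 Cd36KO values lay wholly on one side of the 4 WT values for 1 of 42 genes with a mean of at least 10 normalized counts, which was Lipa, higher in Cd36KO, against 8.65% of 9834 genes (4.74% higher and 3.91% lower). In bulk tissue a change in the number of cells of a type cannot be told apart from a change in RNA per cell, and this holds for every value given here.

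The changes went both ways, with a median size of 0.23 on the log2 scale against 0.26 over all tested genes. The median signed log2 fold change over the 41 genes was 0.0025, against -0.0088 over all tested genes, with 21 above and 20 below zero and a range from -0.85 (Arsb) to 0.65 (Tfeb). A missed threshold does not show that the genotypes were alike, so the intervals were read as well. For 35 of the 41 genes (85.4%, against 63.3% of all tested genes) the 95% interval lay within a log2 change of 1, a 2-fold change, in either direction. Within a log2 change of 0.5 lay the intervals of only 6 (14.6%, against 8.56%): Lamp2, Hexa, Atp6v0d1, Atp6v1a, Atp6v1e1 and Atp6ap1. The 6 genes whose intervals reached beyond 2-fold were Glb1, Psap, Arsb, Tpp1, Grn and Tfeb.

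**Figure D2:**
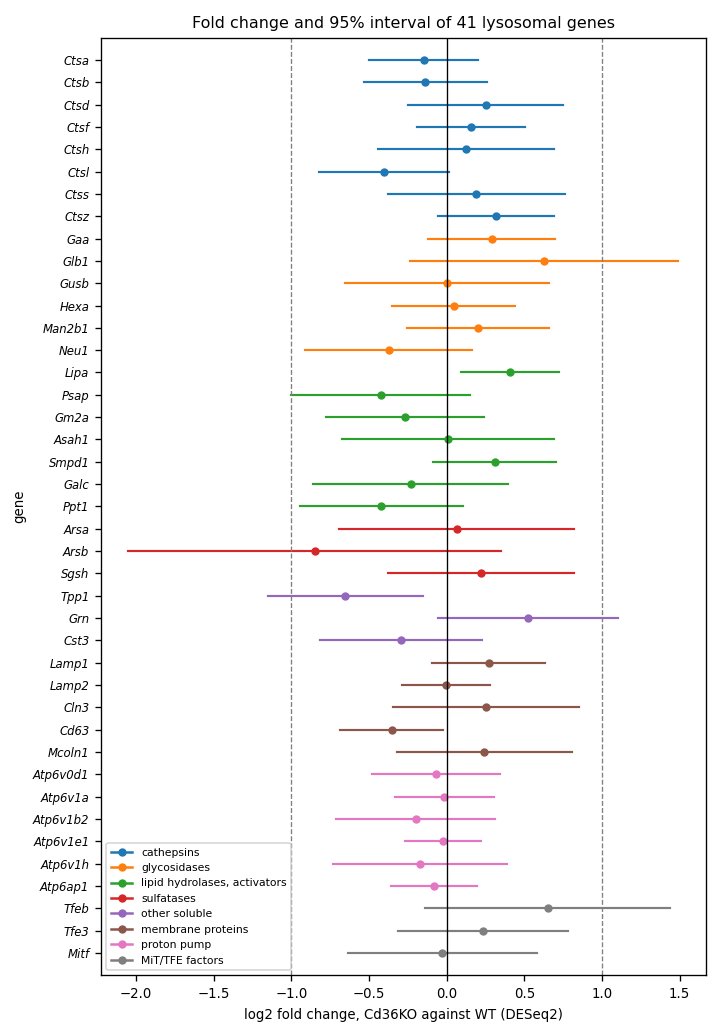
Log2 fold change of 41 lysosomal genes in Cd36KO against WT (points) with 95% intervals (lines), coloured by role; the solid line is no change and the dashed lines a 2-fold change. The intervals of Lipa, Tpp1 and Cd63 leave out zero without adjustment for multiple testing, and 35 of the 41 lie between the dashed lines.

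Values are listed below as WT 1, 2, 3 and 4, then Cd36KO unnumbered, 2, 3 and 4, in normalized counts. Among the lipid and sphingolipid hydrolases, Lipa (ENSMUSG00000024781, chr19:34492318-34527474, GRCm38), the acid lipase that frees cholesterol and fatty acids from lipoproteins and lipid droplets, had 208.5, 218, 199 and 178 in WT and 261, 246, 299.7 and 259 in Cd36KO. Every Cd36KO library was above every WT library, the closest pair being Cd36KO 2 and WT 2. The log2 fold change was 0.41 ± 0.16 (SE, n = 4 per group; 95% interval 0.09 to 0.72; DESeq2 unadjusted p = 0.0112, adjusted p = 0.154), and edgeR gave an adjusted p of 0.224. Leaving out any 1 library kept it between 0.35 and 0.45.

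The other members of that group did not share this pattern. Psap, the precursor of the saposins that present sphingolipids to their hydrolases, had 774, 875, 677.5 and 1676 in WT and 451, 917, 922 and 691 in Cd36KO. WT 4 stood far above the other 7 libraries, and the unnumbered Cd36KO library was the lowest. Its log2 fold change of -0.42 ± 0.29 (SE) became -0.06 without WT replicate 4 and -0.25 without the unnumbered Cd36KO library. Smpd1, acid sphingomyelinase, had 191, 234, 239.9 and 330.4 against 368, 275, 294 and 297, so that only WT 4 reached into the Cd36KO range. Its log2 fold change was 0.31 ± 0.20 (SE; DESeq2 adjusted p = 0.486), which fell to 0.11 without both WT 1 and the unnumbered Cd36KO library. Gm2a, the activator of ganglioside breakdown, Asah1, acid ceramidase, Galc, which cleaves galactosylceramide, and Ppt1, which removes palmitate from proteins, had log2 fold changes from -0.42 (Ppt1) to 0.0087 (Asah1). Gm2a ranged from 153.5 to 379 in WT and from 166 to 253 in Cd36KO, Asah1 from 19.9 to 55.3 and from 34.8 to 55.7, Galc from 32.3 to 62.3 and from 30.5 to 43.0, and Ppt1 from 63.7 to 124 and from 51.2 to 76.7, so all 4 overlapped. The median over the 7 genes was -0.23.

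The cathepsins showed no shared direction, with 5 above and 3 below zero among the 8 tested and a median log2 fold change of 0.14. Their summed normalized counts were 3309, 5479, 5506 and 6069 in WT and 6335, 4647, 4917 and 6332 in Cd36KO (exact two-sided permutation p = 0.629, n = 4 per group). Ctsd, the aspartic protease that carries most cathepsin counts, had 1507, 3108, 3082 and 3516 in WT and 4042, 2603, 2677 and 4009 in Cd36KO. WT 1 lay below every other library, at 0.466 of the mean of the other WT libraries, and the remaining 7 overlapped. Its log2 fold change of 0.25 ± 0.25 (SE) became 0.04 without WT replicate 1 and -0.06 in the 6 libraries left after WT 1 and the unnumbered Cd36KO library were set aside. Ctsb, a cysteine protease, had 870, 1354, 1424 and 1591 against 1160, 1022, 1123 and 1455, again with WT 1 lowest of all. The change was -0.14 ± 0.20 (SE; 95% interval -0.53 to 0.26), and without WT replicate 1 it was -0.29.

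The remaining cathepsins were less abundant. Ctsl, a cysteine protease, ranged from 125 to 200.5 in WT and from 108 to 130 in Cd36KO, with a log2 fold change of -0.40 ± 0.21 (SE; edgeR adjusted p = 0.295). Ctsz, a carboxypeptidase, ranged from 347 to 394 and from 310 to 528, at 0.32 ± 0.19 (SE), with Cd36KO 4 below the whole WT range and the other Cd36KO libraries above it. Ctss, the protease that trims the invariant chain in antigen-presenting cells, ranged from 30.7 to 67.7 and from 51.1 to 70.6. Ctsa (196 to 266 in WT, 168 to 226 in Cd36KO), Ctsf (114 to 130 and 125 to 138) and Ctsh (43.5 to 49.4 and 39.9 to 72.4) had log2 fold changes from -0.15 (Ctsa) to 0.15 (Ctsf). Ctsk, known from bone-resorbing cells, ranged from 2.29 to 10.2 normalized counts and Ctso from 4.95 to 18.4 over the 8 libraries. These stood beside a floor of 3 counts that equals 2.29 to 3.53 by library, and neither gene received an adjusted p from DESeq2.

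**Figure D3:**
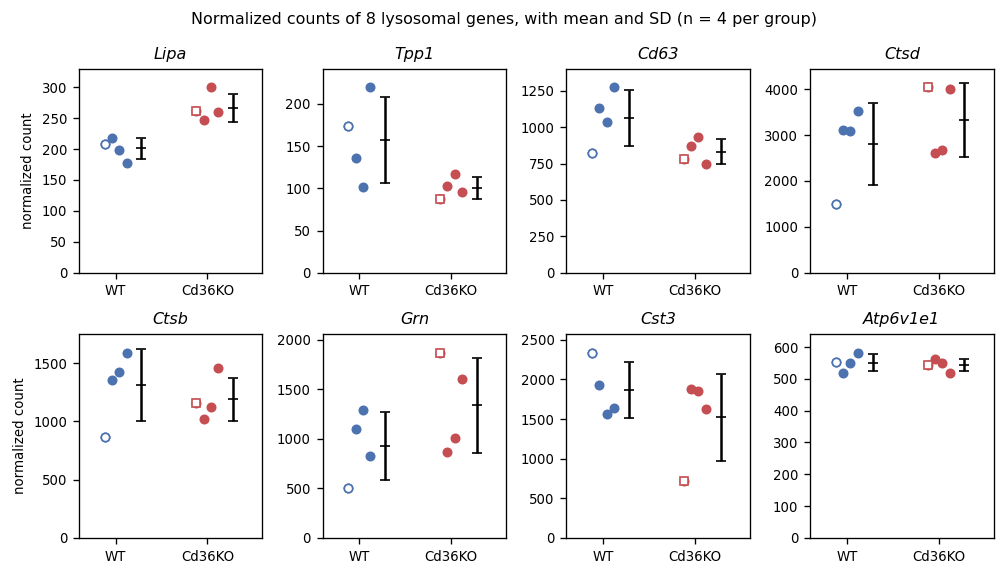
Normalized counts of 8 lysosomal genes in each library, WT in blue and Cd36KO in red, with the mean and SD beside each group (n = 4). The open circle is WT 1 and the open square the unnumbered Cd36KO library; only in Lipa do the groups stand apart, and WT 1 is the lowest point of Ctsd, Ctsb and Grn.

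Among the glycosidases, which trim sugar chains and glycogen, 5 of 6 tested genes lay above zero, none had an unadjusted p under 0.05 by DESeq2 or edgeR, and the median log2 fold change was 0.12. Hexa, a subunit of beta-hexosaminidase, had 99.3, 143, 140.0 and 112 in WT and 112.5, 138, 132 and 127 in Cd36KO, with a change of 0.05 ± 0.20 (SE). Gaa, acid alpha-glucosidase, had 77.6, 100.2, 84.7 and 92.0 against 129, 101, 108 and 96.1, so WT 2 alone reached above the lowest Cd36KO value. Its change was 0.29 ± 0.21 (SE; DESeq2 adjusted p = 0.534; exact two-sided permutation p = 0.0571). Glb1, acid beta-galactosidase, was also followed because its fold change was the largest of the 6 tested genes of the group: it had 33.1 to 37.6 in 3 WT libraries, 36.8 to 47.9 in Cd36KO and 5.42 in WT 1. The log2 fold change of 0.63 ± 0.44 (SE) fell to 0.28 without WT replicate 1. Gusb, Man2b1 and Neu1, which remove glucuronic acid, mannose and sialic acid, changed by 0.0025, 0.20 and -0.37 on overlapping ranges of 22.6 to 61.15 and 36.8 to 51.1, 59.35 to 87.0 and 67.5 to 95.5, and 58.8 to 100.9 and 51.1 to 82.85. Manba, which cleaves beta-mannosides, had 0 to 12.6 in WT and 3.45 to 13.4 in Cd36KO and no adjusted p.

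The 3 sulfatases were low. Sgsh, which acts on heparan sulfate, had 29.8, 32.3, 37.6 and 52.4 in WT and 51.2, 35.7, 51.1 and 38.9 in Cd36KO, and Arsa, which acts on sulfatides, had 29.8, 16.1, 29.4 and 19.8 against 18.9, 33.4, 18.4 and 28.2. Both pairs of groups overlapped throughout, with log2 fold changes of 0.22 ± 0.31 and 0.07 ± 0.39 (SE). Arsb, which acts on dermatan sulfate, had the lowest fold change of all 41 genes, -0.85 ± 0.61 (SE), on 9.03 to 24.7 against 1.15 to 15.2. Its 95% interval ran from -2.05 to 0.35, so that neither a fall to less than 0.5 of WT nor a small rise was outside it. Leaving out 1 library moved the change from -0.50 (without Cd36KO replicate 2) to -1.26 (without Cd36KO replicate 4).

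The 3 other soluble proteins had coefficients of variation in WT and Cd36KO of 32.3% and 12.5% (Tpp1), 36.7% and 35.7% (Grn) and 18.9% and 35.9% (Cst3). Tpp1 (ENSMUSG00000030894, chr7:105744811-105752235), a peptidase that removes tripeptides, had 173, 136, 101 and 219.6 in WT and 86.9, 102, 117 and 95.3 in Cd36KO. WT 3 lay within the Cd36KO range and the other WT libraries above it. The log2 fold change was -0.65 ± 0.25 (SE; 95% interval -1.15 to -0.15; DESeq2 unadjusted p = 0.0102, adjusted p = 0.149; edgeR adjusted p = 0.185), and without WT replicate 4 it was -0.45. Grn, the precursor of progranulin and the granulins, had 506, 1104, 1290 and 825 against 1873, 869, 1010 and 1605. WT 1 was again the lowest and the unnumbered Cd36KO library the highest. Its change of 0.52 ± 0.30 (SE; DESeq2 adjusted p = 0.393) fell to 0.32 when either of these libraries was left out and to 0.12 without both. Cst3, cystatin C, had 2339, 1926, 1561 and 1634 against 721, 1879, 1856 and 1628, the opposite order at the ends: WT 1 was the highest library and the unnumbered Cd36KO library the lowest, less than 0.5 of any other. The change of -0.29 ± 0.27 (SE) became -0.06 without the unnumbered Cd36KO library and 0.07 without both.

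Of the 5 membrane proteins, 3 lay above and 2 below zero. Lamp1, the major glycoprotein of the lysosomal membrane, had 1352, 1626, 1796 and 1920 in WT and 2614, 1590, 1896 and 1975 in Cd36KO, with a change of 0.27 ± 0.19 (SE; DESeq2 adjusted p = 0.513). Only the unnumbered Cd36KO library was well above the WT range, and without WT 1 and that library the change was 0.04. Cd63 (ENSMUSG00000025351, chr10:128900989-128912822), a tetraspanin of late endosomes and of extracellular vesicles, had 821.5, 1130, 1033 and 1274 against 779, 871, 932 and 749. WT 1 lay within the Cd36KO range and the other WT libraries above it. The log2 fold change was -0.35 ± 0.17 (SE; 95% interval -0.69 to -0.02; DESeq2 unadjusted p = 0.0362, adjusted p = 0.273; edgeR adjusted p = 0.328). Lamp2, a partner of LAMP1, had the smallest log2 fold change of the 5, -0.0046, with a 95% interval from -0.29 to 0.28. It ranged from 362 to 389 in WT and from 348 to 430 in Cd36KO. Cln3 and Mcoln1 changed by 0.25 ± 0.31 and 0.24 ± 0.29 (SE). Mcoln1 lay at 56.0 to 84.1 in WT, inside its Cd36KO range of 49.5 to 108, and Cln3 stood at 79.1 in the unnumbered Cd36KO library against 36.6 to 48.2 in the other 7.

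The proton pump was the group with the least change. All 6 tested genes lay below zero, at -0.20 (Atp6v1b2) to -0.01 (Atp6v1a), and for 4 of them the 95% interval lay within 0.5 on the log2 scale. Atp6ap1, an accessory subunit, had 589.5, 648, 654 and 629 in WT and 691, 522, 560.5 and 607 in Cd36KO, a change of -0.08 ± 0.14 (SE). Atp6v1e1, a stalk subunit, had 554, 517, 550.4 and 583 against 544, 563, 548 and 518, a change of -0.02 ± 0.13 (SE; 95% interval -0.27 to 0.22), with coefficients of variation of 4.86% and 3.44%. Atp6v1a and Atp6v1b2, subunits of the catalytic head, and Atp6v0d1 and Atp6v1h completed the group. Atp6v1a ranged from 366.5 to 545 in WT and from 418 to 466 in Cd36KO, Atp6v0d1 from 94.8 to 116 and from 88.6 to 126, and Atp6v1h from 44.7 to 87.05 and from 45.7 to 76.7. However, the sign of Atp6v1b2 turned to 0.18 without WT replicate 4, where it had 680.5 against 283.5 to 338 in the other WT libraries. Atp6v1a and Atp6v1e1 also turned above zero without that library, to 0.09 and 0.0055, and at least 1 of the 6 genes also turned above zero without WT replicate 2, Cd36KO replicate 2 or Cd36KO replicate 4.

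Atp6v0c (ENSMUSG00000024121, chr17:24163866-24169702), the proteolipid that forms the rotor ring of the pump, was listed at 0 in all 8 libraries, although its partner subunits were well expressed. A count of 0 allows up to 3 counts, or at most 3.53 normalized counts in a library. Of its 1109 stretches of 75 bases, the read length, 316 (28.5%) occur identically in another annotated gene, mainly the pseudogene Atp6v0c-ps2, and all 316 lie in its coding sequence. One of them, bases 234 to 308 of the coding sequence, shows what the gene and its copy share in full, and a 75-base read of it matches both.
Atp6v0c and Atp6v0c-ps2, shared stretch: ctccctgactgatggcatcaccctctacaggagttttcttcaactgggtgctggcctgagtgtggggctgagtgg
The remaining stretches were not shared, and why the listed value is 0 was not tested. A further 3 genes had many shared stretches and are less certain where reads with several placements were dropped or split: Ctsd with 35.8%, all with Gm49369, an annotated gene that overlaps it on the same strand and was at 0 counts, Cd63 with 25.9%, with Cd63-ps, and Ctsl with 5.61%. Opposite-strand genes overlapped 18.8% to 32.3% of the exon length of Arsa, Sgsh, Ctsl and Arsb, where they held 0 to 90 counts over the 8 libraries. Smaller overlaps with genes that held more counts were those of Ctsb with Fdft1 (12.8%, 1294 counts), Ctsa with Pltp (10.5%, 360 counts), Lamp1 with Grtp1 (9.3%, 457 counts), Ppt1 with Cap1 (3.5%, 386 counts) and Ctsz with Nelfcd (0.7%, 3413 counts), and the strand setting of the counting is not given in the sources used here.

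The transcription factors of the MiT/TFE family were low and variable. Tfe3 had 93.9, 53.5, 82.3 and 68.2 normalized counts in WT and 111, 54.1, 97.2 and 87.0 in Cd36KO, and Mitf had 29.8, 49.3, 42.3 and 69.2 against 40.1, 41.4, 52.2 and 52.6. Neither pair of groups separated, with log2 fold changes of 0.23 ± 0.28 and -0.03 ± 0.31 (SE). Tfeb, the main activator of the CLEAR element, had the highest fold change of the 41 genes, 0.65 ± 0.40 (SE; 95% interval -0.14 to 1.44; DESeq2 adjusted p = 0.456). It spanned 17.1 to 32.9 in WT and 16.1 to 60.2 in Cd36KO, with the extremes in Cd36KO 2 and the unnumbered Cd36KO library. Its change was 0.90 without the former, 0.38 without the latter and 0.24 without both WT 1 and the unnumbered library.

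Libraries of one genotype stood apart from each other in the lysosomal genes. WT 1 was the lowest of all 8 libraries for 14 of 41 lysosomal genes (34.1%, against 21.2% of all tested genes), and lay below the other WT libraries for 22 (53.7%, against 32.1%). The unnumbered Cd36KO library was the highest of all 8 for 15 genes (36.6%, against 18.5%) and WT 4 for 14 (34.1%, against 16.6%). No other library was the highest for more than 3. The deviation of the 41 genes from their own means over 8 libraries had a median of -0.18 in WT 1, 0.16 in WT 4, 0.10 in the unnumbered Cd36KO library and -0.08 in Cd36KO 2 on the log2 scale, while the median over all tested genes lay between -0.0054 and 0.03 in each library. These are descriptions, and genes of one library are not independent replicates.

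**Figure D4:**
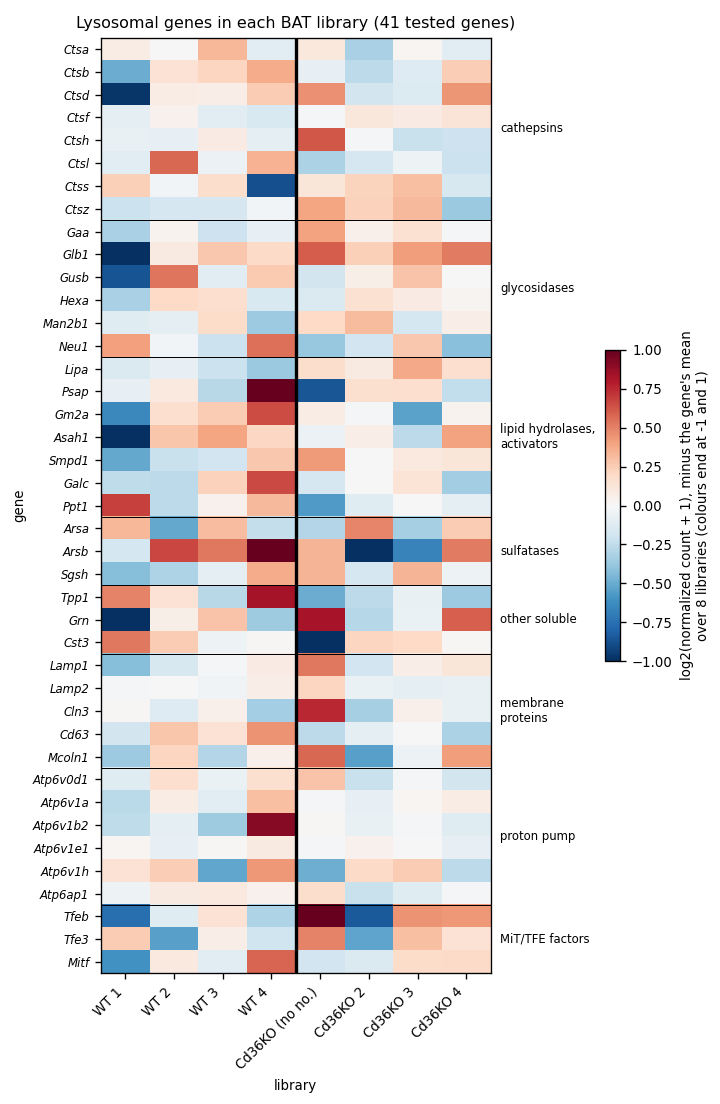
Deviation of each of 41 lysosomal genes from its mean over the 8 libraries, in log2(normalized count + 1), with libraries in columns and genes grouped by role; colours end at -1 and 1. The column of WT 1 is mostly blue apart from Cst3, Ppt1, Tpp1, Neu1 and a few others, and the columns of WT 4 and the unnumbered Cd36KO library hold most of the strong reds.

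**Figure D5:**
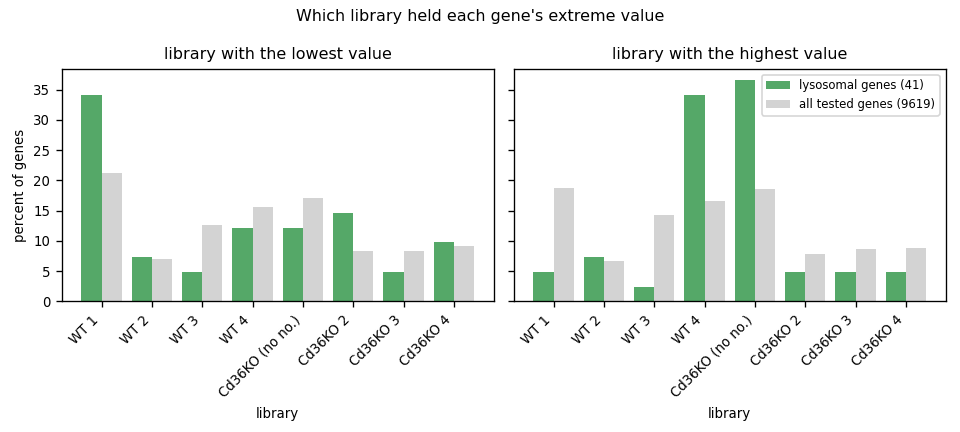
Percent of 41 lysosomal genes (green) and of 9619 tested genes (grey) for which each library held the lowest (left) or the highest (right) of 8 values. WT 1 held the lowest value for 34.1% of the lysosomal genes, and WT 4 and the unnumbered Cd36KO library together held the highest for most of them.

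The genes concerned were not the same at the ends. In WT 1 the ratio to the mean of the other WT libraries was 0.153 for Glb1, 0.385 for Asah1, 0.45 for Gusb, 0.466 for Ctsd, 0.472 for Grn, 0.475 for Arsb and 0.493 for Gm2a, and 1.56 for Ppt1, 1.38 for Tfe3 and 1.37 for Cst3. In WT 4 it was 2.21 for Atp6v1b2, 2.16 for Psap, 1.80 for Arsb, 1.71 for Mitf and 1.69 for Galc, and 0.488 for Ctss. In the unnumbered Cd36KO library it was 1.85 for Tfeb, 1.84 for Cln3, 1.72 for Ctsh, 1.61 for Grn and 1.5 for Mcoln1, and 0.403 for Cst3 and 0.535 for Psap. WT 1 was thus low in several hydrolases and in Grn, the unnumbered Cd36KO library high in Tfeb, Cln3 and Ctsh, and WT 4 high in the saposin precursor and a pump subunit. The genes named in this paragraph were chosen after their values were seen.

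Marker lists of muscle, macrophages and LAMs differed between libraries, while their summed shares overlapped between the genotypes (exact two-sided permutation p = 0.143, 0.371 and 0.114, n = 4 per group). Skeletal muscle markers held 1.42% of counts in WT 1, 0.0144% to 0.258% in WT 2, 3 and 4, and 0.000841% to 0.141% in Cd36KO; all 8 were below zero in Cd36KO, and DESeq2 called none, with 5 at an unadjusted p under 0.05 (7 by edgeR). Over all tested genes the shares to read such counts against are those given above, 2.95% called and 15.6% at an unadjusted p under 0.05 by DESeq2, and 0.143% and 16.1% by edgeR. Macrophage markers summed to 0.0266% to 0.0439% in WT and 0.0259% to 0.0359% in Cd36KO, with 1 of 12 tested called by DESeq2 (Cd163, lower) and 0 by edgeR. Of the list, 5 of the 12 had an unadjusted p under 0.05 (Mrc1, Cd163, Itgam and Mertk lower, Tyrobp higher; 5 by edgeR), and the groups did not overlap for 3, against 8.65% of all genes. The macrophage sum was 0.0279% in WT 1 and 0.0266% in WT 4, the lowest of its group although WT 4 was often highest in the lysosomal genes, and 0.0359% in the unnumbered Cd36KO library, the highest of its group. Of the LAM markers, Trem2 was at 0 to 2.29 normalized counts in every library and Spp1 at 0 to 8.12, DESeq2 called none of 4 tested, with 1 at an unadjusted p under 0.05 (1 by edgeR), and the summed list, 0.294% to 0.464% in WT and 0.29% to 0.365% in Cd36KO, consisted mostly of Lpl, which adipocytes express too. Their part in the lysosomal values was not tested.

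The lists whose summed shares did not overlap between the genotypes were those of fat cells and stroma. Single macrophage and muscle markers also differed at the unadjusted threshold, as counted above. Brown adipocyte markers were higher, with 4 of 9 called by DESeq2 (against 2.95%), 0 by edgeR (8 at an unadjusted p under 0.05 by either, against 15.6% and 16.1%) and a summed share of 1.06% to 1.21% in Cd36KO against 0.567% to 0.736% in WT. White adipose markers were lower, with 3 of 3 tested genes of the list called by DESeq2 and by edgeR (0.00129% to 0.00279% against 0.00707% to 0.0163%), and fibroblast and stromal markers too, with 2 of 8 called by DESeq2 and 1 by edgeR (0.0553% to 0.0684% against 0.0703% to 0.109%). With limma 0 genes of these 3 lists were called. For each of the sums the groups did not overlap (exact two-sided permutation p = 0.0286). The summed share of the lysosomal genes overlapped between the groups in the same libraries. Endothelial markers had 0 of 5 called by DESeq2, with 0 at an unadjusted p under 0.05 and 1 by edgeR, and overlapped (0.0199% to 0.0405% and 0.0255% to 0.0358%), and lymphocyte and neutrophil markers held at most 0.00112% of counts.

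A further 104 genes of lysosomal function, none of them among the 45, were followed as a list. Of these, 103 had counts and 94 were tested, of which DESeq2 called 3 at an adjusted p of 0.05, 1 higher and 2 lower, against the 2.95% of all genes given above. At an unadjusted p under 0.05 DESeq2 returned 7 of 94, against 15.6% of all tested genes. Neither edgeR nor limma called any, with 9 and 10 of 94 at an unadjusted p under 0.05, against 16.1% and 15.7%. The median log2 fold change was 0.04, with 54 above and 40 below zero.

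Wipi2, which binds the forming autophagosome membrane, had 405, 402, 419.9 and 426 normalized counts in WT and 778, 625, 612 and 596 in Cd36KO. The groups were well apart and the WT values close together, with a log2 fold change of 0.66 ± 0.15 (SE, n = 4 per group; DESeq2 adjusted p = 0.00182, edgeR adjusted p = 0.109). It was the only one of 15 autophagy genes called, and 11 of the 15 lay above zero with a median of 0.04.

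Atp6v0e2, a minor isoform of a membrane subunit of the pump, had 61.4, 82.4, 64.7 and 71.2 against 46.8, 13.8, 18.4 and 11.4. It was lower in every Cd36KO library, least so in the unnumbered one, with a change of -1.65 ± 0.40 (SE; DESeq2 adjusted p = 0.00563, edgeR adjusted p = 0.0935). Of 12 tested subunits outside the 45, 1 was called, and 8 lay above zero.

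Cd164, a sialomucin of endosomes and lysosomes, had 178, 199, 174 and 246 against 129, 130, 112.5 and 143, a change of -0.63 ± 0.19 (SE; DESeq2 adjusted p = 0.0428, edgeR adjusted p = 0.121). It was the only one of 37 other lysosomal proteins called. DESeq2 called 0 of 18 genes that sort proteins to the lysosome (2 at an unadjusted p under 0.05, 3 by edgeR) and 0 of 12 tested genes of the Rag, Ragulator and folliculin group that signals lysosomal nutrients to mTORC1 (1 at an unadjusted p under 0.05, 1 by edgeR), beside the same shares over all genes. The call of Cd164 was kept in 1 of the 8 fits that left out a library (without WT replicate 1), and was lost without independent filtering and in the 6 libraries with shared replicate numbers, blocked or not. Wipi2 was called in all 8 and Atp6v0e2 in all but that without WT replicate 2, while the blocked fit kept Atp6v0e2 and lost Wipi2. Without WT replicate 1 there were 5 calls, with Acp5 and Sort1 added. Acp5 was also called in the blocked fit, and Acp5 and Sort1 in the same 6 libraries unblocked.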

How the data were processed

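BAT was profiled by single-end bulk RNA-seq in 4 libraries labelled WT and 4 labelled Cd36KO. The authors deposited raw counts for each gene, which are whole numbers without normalization. Their other deposited table gives log2 values, which match log2 of the normalized count (scaled by median-of-ratios size factors) with a pseudocount of 1 to within 4.97e-14. Per the study's methods, reads were trimmed with bbduk, aligned with STAR and counted with HTSeq-count, whereas the submitters' processing notes name Trimmomatic, HISAT2, DESeq2 and the builds GRCm38 and mm10; the annotation release, the strandedness and the handling of molecular identifiers are not given in the sources used here. Of 31053 identifiers, 30934 matched a symbol in GENCODE on GRCm38. Coordinates are 1-based.

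The members were listed by name, with no measured value in the rule, but members, lists and tests were chosen with earlier results of these data known. Genotype was tested with DESeq2 1.42.0 (Wald test, default filters, the tool named in the study's methods) over all genes, with Benjamini-Hochberg adjustment and a threshold of 0.05. Fold changes are unshrunken. Ctsk, Ctso and Manba were removed by independent filtering, which is why they have no adjusted p. Alternatives were edgeR 4.0.16 (quasi-likelihood, TMM, filterByExpr), limma 3.58.1 on the log2 values, TMM factors, at least 10 counts in 4 libraries, no independent filtering, the replicate number as a block over 3 numbered pairs, those 6 libraries unblocked, and leaving out each library. Single values were compared by exact two-sided permutation over 70 arrangements. The functions were tested on simulated counts (R 4.3.3). The floor of 3 counts covers counting error only, since reads may be copies of one molecule.

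A lysosomal gene was given its value in every library if its DESeq2 adjusted or unadjusted p was under 0.05 or its groups did not overlap (mean of at least 10), and in each role group so were the 2 genes with the highest mean normalized count; others are given by range, fold change or counts. Other pathway genes with an adjusted p under 0.05 are named. Any other gene was named after its values were seen. Promoters came from RefSeq (GRCm38.p6), and shared 75-base stretches from GENCODE transcripts. Figures were drawn with matplotlib 3.10.9.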

Additional observations from a re-analysis of the deposited data

Results flagged for a closer look

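In 5 of 84 groups of 4 libraries (41 lysosomal genes and Cd36, each group taken alone) 1 library stood apart from the other 3 by a gap that took up most of the group's range (Dixon's 95% critical value), where about 4.2 such groups are expected by chance (5%). These were Ctsh in WT 3 (49.4 normalized counts, others 43.5 to 44.2), Glb1 in WT 1 (5.42, others 33.1 to 37.6), Gm2a in Cd36KO 3 (166, others 238 to 253), Lamp2 in the unnumbered Cd36KO library (430, others 348 to 353) and Atp6v1b2 in WT 4 (681, others 283 to 338). The 5 fell in 5 different libraries, and each of the other 3 libraries had none. The log2 fold change of Glb1 was 0.63 with and 0.28 without WT 1.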

How the results depend on the processing

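The count of lysosomal genes called was 0 under the main DESeq2 test and under each of 15 alternatives, with the lowest adjusted p of any member at 0.0716 (without WT replicate 3). Their median log2 fold change lay between -0.08 and 0.06. Depth limits the low members: Ctsk, Ctso, Manba and Arsb averaged under 20 normalized counts in either group. Of the 104 other pathway genes, 3 were called by DESeq2, 0 by edgeR, 0 by limma, and 1 (without WT replicate 2) to 5 (without WT replicate 1) when 1 library was left out. The fold change of Cd36 kept its sign, at -0.57 to -0.38 when 1 library was left out. It passed the threshold only with TMM factors (-0.49, DESeq2 adjusted p = 0.0494) and without WT replicate 4 (-0.57), and missed it in the other 13 alternatives, with adjusted p of 0.191 by edgeR, 0.214 by limma and up to 0.29 (without WT replicate 3). In the whole table DESeq2 called 284 genes, edgeR 14 and limma 0, and between 69 and 507 were called without 1 library.

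Samples that share a number did not deviate together in every pair (r = -0.07, 0.27 and 0.11, 3 pairs), so the number was not taken as a pairing. With the replicate block over these 3 pairs, 0 lysosomal genes and 2 other pathway genes were called, against 0 and 4 in the same 6 libraries unblocked, and 219 against 262 genes in the whole table. Cd36 changed by -0.45 in the block fit. The sign turned in the block fit and in the same libraries unblocked for Ctsd (-0.0869 and -0.0604), Ctsh (-0.11 and -0.12), Gusb (-0.12 and -0.14), Asah1 (-0.22 and -0.19), Cst3 (0.0721 and 0.0685) and Mcoln1 (-0.0404 and -0.0060).

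Gusb also turned with edgeR (-0.0085) and with at least 10 counts in 4 libraries (-0.0042), and Mitf with limma (0.0194). Leaving out 1 library turned the sign of 13 members, whose changes with all libraries were -0.23 (Galc) to 0.25 (Cln3), with ranges of -0.22 to 0.23 (Gusb), -0.0471 to 0.13 (Hexa), -0.23 to 0.14 (Asah1), -0.10 to 0.20 (Arsa), -0.10 to 0.094 (Atp6v1a), -0.0072 to 0.31 (Ctss), -0.35 to 0.0001 (Galc), -0.0806 to 0.0277 (Lamp2), -0.33 to 0.18 (Atp6v1b2), -0.0488 to 0.0055 (Atp6v1e1), -0.20 to 0.21 (Mitf), -0.11 to 0.22 (Ctsh) and -0.0103 to 0.39 (Cln3). The cause was not tested.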

Other observations

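Among genes of lysosomal function outside the 45, 5 had a DESeq2 unadjusted p under 0.05 or groups that did not overlap without passing adjustment, and they are named after their values were seen. With the called genes included, 7 of 94 had such a p, against 15.6% of all tested genes. The groups did not overlap for 5 of 96 genes with a mean of at least 10 normalized counts, against 8.65% of 9834. Both counts were thus below the share over all genes. Mtor, the kinase that senses nutrients at the lysosome, had 94.8, 122, 138 and 137.5 normalized counts in WT and 202, 165, 137 and 204 in Cd36KO (log2 fold change 0.53 ± 0.21, SE, n = 4 per group; DESeq2 adjusted p = 0.17). Atp6v1f, a small subunit of the proton pump's peripheral part, had 949.6, 1016, 1146 and 1458 against 2154, 1418, 1508 and 1401, with WT 4 inside the Cd36KO range (0.50 ± 0.20; DESeq2 adjusted p = 0.151; edgeR adjusted p = 0.244). Without WT replicate 4 DESeq2 called Atp6v1f, and also Atp6ap2 of the same list. Ap3b1, a subunit of the adaptor that carries membrane proteins to lysosomes, was lower in all 4 Cd36KO libraries, at 65.7 to 106 against 111 to 135 (-0.50 ± 0.22; DESeq2 adjusted p = 0.22), and so was Aga, which cleaves glycoasparagines, at 58.7 to 80.8 against 83.2 to 106 (-0.42 ± 0.23; DESeq2 adjusted p = 0.354). Igf2r, the receptor that sorts mannose-6-phosphate enzymes, had 57.4 to 106 in WT and 22.3 to 77.7 in Cd36KO (-0.71 ± 0.35; DESeq2 adjusted p = 0.292).

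Acp5, an acid phosphatase known from osteoclasts and macrophages, and Npc2, the luminal cholesterol carrier, showed the low WT 1 value seen in Ctsd and Grn. Acp5 had 124 normalized counts in WT 1 and 444 to 497.5 in the other WT libraries, and 225 to 388 in Cd36KO. Npc2 had 1311 in WT 1, 2518 to 2745 in the other WT libraries and 1883 to 2798 in Cd36KO. Skeletal muscle markers held 1.42% of counts in WT 1, and their part in these values was not tested.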
